A study of Drosophila melanogaster with 2 samples.

Results

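Head-to-head promoters are pairs of genes whose transcription starts face away from each other across a short shared stretch of DNA. In the deposited ChIP-seq data for the zinc-finger protein ZIPIC (CG7928), 797 of the 2971 optimal peaks lay at such promoters. A peak was taken when its summit was within 500 bp of a minus-strand start and of a plus-strand start of different protein-coding genes, with the minus-strand start on the left and the starts at most 1000 bp apart. Position alone chose these peaks, and no measured value was used beyond membership of the optimal list. Of the other peaks, 1169 had a summit within 500 bp of a protein-coding start without meeting the rule (called other promoter peaks below), and 1005 had no protein-coding start within that distance.

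All material came from 1 group, a transgenic Drosophila melanogaster line that stably expresses CG7928 fused to GFP at its C terminus. Whole embryos of 0 to 24 h and of both sexes were pooled, so every cell type of the embryo contributed, and the DNA bound by the fusion protein was recovered with an antibody against GFP. The 2 samples are biological replicates, numbered 2 and 3. The promoter that drives the transgene is not given in the sources used here, and no precipitation from untagged embryos was analysed here.

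ZIPIC belongs to the architectural, or insulator, proteins of flies, which bind DNA through zinc fingers and recruit partners such as CP190. Proteins of this class are often found at the promoters of housekeeping genes and at boundaries between chromatin domains. The compact fly genome holds many housekeeping genes in head-to-head pairs, where regulatory sequence between the starts can serve both genes.

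The sequences under the summits are shown for 3 sets of strong head-to-head peaks, picked where the 50 bp on each side of the summit were clear of annotated exons. They are given 5′ to 3′ on the plus strand of dm6 (the Release 6 reference genome), and capitals mark the string searched. Peaks of 1 chromosome arm were left out of the choice. The first set shows the 5 strongest such peaks with CAGGGCTG, a core string for ZIPIC that was chosen with results of these peaks in view, or its reverse complement CAGCCCTG. The minus-strand gene is named first in every pair.
Arp3/msk (chr3L:8116043-8116143, plus strand): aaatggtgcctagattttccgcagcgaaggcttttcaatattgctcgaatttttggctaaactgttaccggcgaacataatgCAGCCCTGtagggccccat
CG1105/CG1965 (chr3R:7067257-7067357, plus strand): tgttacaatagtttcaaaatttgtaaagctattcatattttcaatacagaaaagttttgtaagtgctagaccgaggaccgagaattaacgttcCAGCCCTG
Top3beta/wuho (chrX:6287999-6288099, plus strand): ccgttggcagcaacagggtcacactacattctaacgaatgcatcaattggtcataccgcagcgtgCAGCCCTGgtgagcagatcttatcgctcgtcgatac
EloB/Srp14 (chr3R:20579990-20580090, plus strand): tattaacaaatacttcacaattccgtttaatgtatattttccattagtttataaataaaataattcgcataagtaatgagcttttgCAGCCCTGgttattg
ssh/Nmnat (chr3R:24944958-24945058, plus strand): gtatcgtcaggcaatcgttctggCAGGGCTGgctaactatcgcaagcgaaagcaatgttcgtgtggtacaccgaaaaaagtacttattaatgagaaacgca

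In all 5 windows the core lay between the starts and upstream of the nearer start. Windows clear of annotated exons leave little room for another position, so this follows in part from the choice. Over all 84 head-to-head peaks with the core, it lay between the starts in 62 (73.8%) and downstream of the nearer start in 22. In 4 of the 5 windows the core read CAGCCCTG on the plus strand, and the nearer gene was the plus-strand one. In ssh/Nmnat it read CAGGGCTG, and the nearer gene was the minus-strand one. Its centre was 50.5 bp from the start of msk, 47.5 bp from CG1965, 32.5 bp from wuho, 35.5 bp from Srp14 and 28.5 bp from ssh.

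The second set holds 2 of the strongest peaks in which neither the core nor its shorter form AGGGNTG was present on either strand of the window. No letters are in capitals there, because no searched core was found.
CG15011/CG1309 (chr3L:4259286-4259386, plus strand): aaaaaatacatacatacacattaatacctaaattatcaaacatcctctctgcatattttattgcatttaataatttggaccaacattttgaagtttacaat
PAPLA1/Rbsn-5 (chr2L:8159674-8159774, plus strand): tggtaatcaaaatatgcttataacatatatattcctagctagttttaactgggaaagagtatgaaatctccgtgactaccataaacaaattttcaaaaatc

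The last window is the strongest such peak with TATCGATA, the string bound by the promoter factor DREF, and without the shorter core. TATCGATA contains CGATA, the string bound by the insulator protein BEAF-32, and the match is to the letters only.
Stt3B/CG11839 (chr3R:25069671-25069771, plus strand): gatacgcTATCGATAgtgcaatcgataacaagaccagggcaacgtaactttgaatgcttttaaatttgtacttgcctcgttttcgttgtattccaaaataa

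The strongest ZIPIC peak of the list was a head-to-head peak, between Arp3, which acts with its partners to start branched actin filaments, and msk, a nuclear import receptor. The signal value in the deposited lists is the authors' own score for each entry, on a scale not given in the sources used here, and serves here to rank and describe peaks. Arp3/msk had a signal of 4051 in replicate 2 and 3402 in replicate 3, the highest of either replicate, and 7447 in the pooled list. The next head-to-head peak was sti/tral, with sti encoding citron kinase of cytokinesis and tral an RNA-granule protein (chr3L:12514570-12515153), with 3197 in replicate 2 and 2589 in replicate 3. Both replicates thus placed these 2 peaks among their 5 strongest entries.

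Several of the strongest peaks lay at genes of membrane traffic and autophagy. Reps/l(2)gd1, with l(2)gd1 acting in endosomal sorting of Notch, had 3042 in replicate 2 and 2474 in replicate 3. PAPLA1/Rbsn-5, a phospholipase gene beside the gene for the early-endosome protein Rabenosyn-5 (chr2L:8159473-8160011), had 2976 and 2219 in replicates 2 and 3. ERR/Atg18a, a nuclear receptor gene beside an autophagy gene, had 3060 and 2187. No list of endosomal genes was tested, so these are names of single peaks and not a result about a group.

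Further strong peaks are described singly, with no group tested. ACC/Nup44A, acetyl-CoA carboxylase beside a nucleoporin, had 2032 in replicate 2 and 1820 in replicate 3. The pair barr/lok, a condensin subunit beside the checkpoint kinase Chk2, had 2022 and 1317. The peak trbd/dmt, a deubiquitinase gene beside a gene for sister-chromatid cohesion, had 1895 and 1565. Sfmbt/CG43925, with Sfmbt a Polycomb group gene (chr2L:13176515-13177261), had 2910 and 2019, and its summit lay in coding sequence, 386 bp beyond the start of CG43925. The same summit lay between the starts of Sfmbt/CG5439, 365 bp apart, a pair that also met the rule. All 4 peaks were far above the median head-to-head peak in both replicates.

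The other strongest peaks were SCCRO3/Sans, CG15011/CG1309, JMJD6/CG7071, CG2321/CG2006, Prx6a/Sbat, CG32276/gry, CG1105/CG1965, CG31650/CG33995, CG15117/botv, CG9752/Arms and exu/galla-1. The 20 strongest head-to-head peaks ran from 1548 to 4051 in replicate 2 and from 1317 to 3402 in replicate 3. Replicate 2 was higher in 17 of the 20, and none ranked below entry 50 in replicate 2 or entry 56 in replicate 3. Their starts were 41 to 356 bp apart, with a median of 190 bp. In 13 the summit lay between the starts of the described pair, the one with the closest starts, and in 7 outside them. The shorter core was in the window of 13, the full core in 8 and CGATA in 5.

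**Figure D1:**
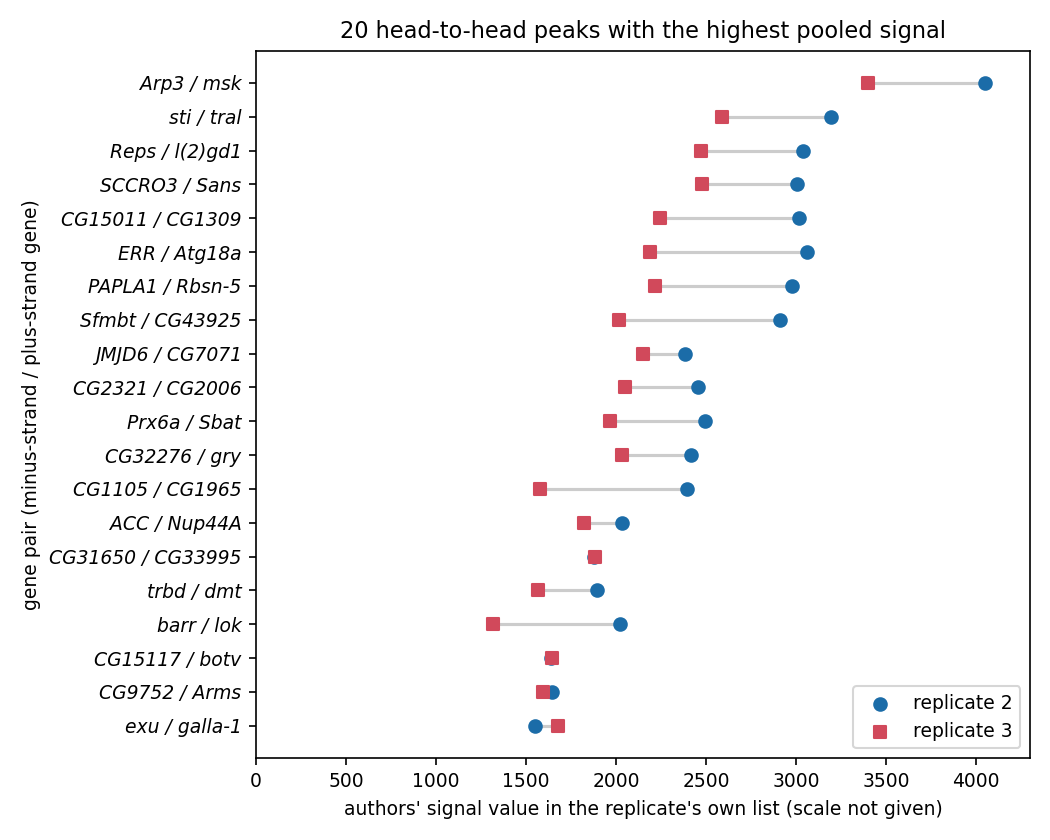
Signal values in replicate 2 (circles) and replicate 3 (squares) on a linear axis for the 20 head-to-head peaks with the highest pooled signal, with gene pairs in order of pooled signal. Replicate 2 is higher in 17 of the 20 pairs, and Arp3/msk has the highest value in both replicates, 4051 and 3402.

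Head-to-head peaks had a median pooled signal of 255.2, with quartiles of 166.8 and 771.2, against a median of 222.8 and quartiles of 159.3 and 504.6 for other promoter peaks. The median of all optimal peaks was 208.6. The ratio of the head-to-head to the other promoter median was 1.145 in the pooled list, 1.763 in replicate 2's own 2971 strongest entries and 1.065 in replicate 3's. The size of this difference therefore depended on the replicate, and without replicate 2 the medians were close. At the upper end, 132 head-to-head peaks were among the 297 strongest of the whole list, or 16.6% (95% interval 14.1 to 19.3%). The same held for 12.2% (143) of the other promoter peaks and 10.0% of all optimal peaks. Intervals here and below are exact Clopper-Pearson intervals that cover counting error over peaks, which are not replicates, and no p-value was computed.

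A peak was called found in both when an entry among the 2971 strongest of each replicate held its summit. This was so for 456 head-to-head peaks, or 57.2% (53.7 to 60.7%), against 61.9% (59.1 to 64.7%) of other promoter peaks and a background of 58.5% of all optimal peaks. The share found in both at head-to-head promoters is near that background and is not a result about them. By this definition the 456 are the stronger ones, with median signals of 307.2 in replicate 2 and 264.8 in replicate 3. In the other 341 the medians were 65.1 in replicate 2, over the 93 that had an entry, and 93.2 in replicate 3, over 336.

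Presence anywhere in the 30000 candidate entries of a replicate differed between the libraries. Replicate 2 listed 549 head-to-head peaks, or 68.9% (65.5 to 72.1%), against 78.5% (76.1 to 80.9%) of other promoter peaks and 79.3% of all optimal peaks. Replicate 3 listed 792, or 99.4%, against 99.2% of other promoter peaks and a background of 99.2%. Head-to-head peaks were thus missing from the list of replicate 2 more often than other promoter peaks, with intervals that do not overlap, and hardly ever from that of replicate 3.

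All optimal peaks were divided by pooled signal into 4 strength classes of near-equal size, and the share listed in replicate 2 was lower at head-to-head peaks in each class, by least in the strongest. From the weakest to the strongest class replicate 2 listed 46.2%, 53.0%, 62.3% and 95.1% of the head-to-head peaks, against 61.8%, 67.1%, 83.4% and 96.2% of the other promoter peaks. The classes held 156, 166, 191 and 284 head-to-head peaks. In the strongest class, with pooled signals of 394.7 and above, 95.1% of head-to-head and 96.0% of other promoter peaks were found in both. In the weakest class the shares were 10.3% and 12.0%.

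Among the 546 head-to-head peaks listed in both replicates the median signal was 210.8 in replicate 2 and 185.1 in replicate 3, and replicate 2 was higher in 350. The corresponding medians of other promoter peaks were 127.5 and 130.5. Requiring an entry in replicate 2 left out a larger share of head-to-head than of other promoter peaks. Over all peaks that replicate 3 listed, its medians were closer, 124.8 at 792 head-to-head and 117.7 at 1160 other promoter peaks. The median log2 ratio of replicate 2 to replicate 3 was 0.16 at head-to-head peaks, with quartiles of -0.19 and 0.44, and 0.04 at other promoter peaks. Across these 546 peaks Spearman's rho between replicates was 0.909 and Pearson's r of log2 signal 0.921, as a description of peaks that share 2 libraries. The value of each replicate is that of the entry holding the summit. In 15 head-to-head peaks of replicate 2 and 24 of replicate 3 that entry's own summit lay over 100 bp away, so the value may belong to a neighbouring peak. Over the 522 without such an entry rho was 0.920 and the medians were 214.7 in replicate 2 and 190.0 in replicate 3.

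**Figure D2:**
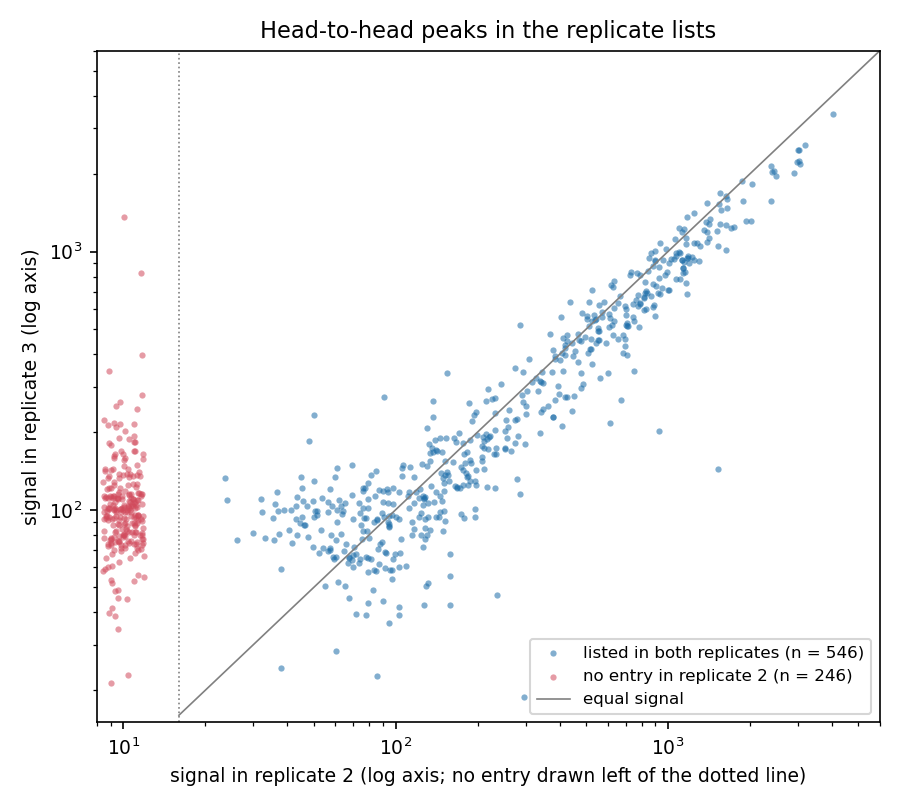
Signal in replicate 2 (x) and replicate 3 (y), both on log axes, for head-to-head peaks, with the 546 listed in both replicates in blue and the line marking equal signal. The 246 peaks without an entry in replicate 2 are drawn in red left of the dotted line with random horizontal scatter, and most lie near 100 in replicate 3, where the 546 extend to 3402.

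The 248 head-to-head peaks with no entry in replicate 2 (31.1%) were weaker than the rest, with a median pooled signal of 178.0, against 382.2 for those listed there. Their starts were about as far apart, with medians of 261 and 264 bp. Fewer of their windows held the shorter core, 22 (8.87%), against 165 (30.1%) of the listed ones, and TATAAA was present in 26.2% and 15.7%. In 246 of them replicate 3 had an entry, in 15 with its own summit over 100 bp away, and the pooled signal exceeded that of replicate 3 by a median of 87.1, with quartiles of 61.9 and 125.8. Elsewhere the pooled signal was close to the sum of the replicates: their sum was 0.996 of the pooled value at the median over peaks listed in both. In 239 of the 246 the excess was above 22.96, the lowest signal that replicate 2's list holds, and only 7 had a replicate 2 summit within 500 bp. Why these intervals have no entry in replicate 2 was not tested, and a missing entry is not a measured absence of binding.

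A few strong peaks were among them. The strongest was ana2/CG13751, with ana2 a centriole duplication gene (chr2R:8900044-8900401), at 1365 in replicate 3 (entry 51) and 2757 in the pooled list. CG2247/CG1703 had 398.4 in replicate 3 and Ripalpha/RpL7, with a ribosomal protein gene, 279.1. ND-ASHI/Fum1, a subunit of respiratory complex I beside fumarase, had 209.1. The peak at stau/Spn55B, with 344.4 in replicate 3, lay 204 bp from a stronger peak of the same pair that replicate 2 listed at 825.2. These 5 show that absence from replicate 2's list was not limited to weak peaks.

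At some peaks the entry taken for the summit ranked differently between the replicates. Where several entries of a replicate held a summit, the one with the nearest own summit was taken. CG8188/par-6, with par-6 a cell polarity gene, had 295.8 in replicate 2 (entry 544) and 18.9 in replicate 3 (entry 29620). It still counts as found in both, because another strong entry of replicate 3 held its summit. The second peak of Taf2/CalpB (235.9 and 46.6) and the peak of 140up/Polr2B (195.5 and 93.7) were also higher in replicate 2. The Taf2/CalpB peak, at entry 6312 of replicate 3, likewise counts as found in both through another strong entry there. Where another strong entry held the summit, the values given need not measure a difference between the replicates. The opposite order was seen at the second peak of Fer1HCH/Fer2LCH, the paired genes of the ferritin chains, with 32.0 in replicate 2 and 109.7 in replicate 3, which counts as found in both for the same reason. The stronger peak of that pair, 200 bp away, had 279.6 in replicate 2 and 131.1 in replicate 3. It was also seen at the second peak of mRpL39/Prosbeta2 (60.8 and 145.7) and at CG14435/Tmf (65.2 and 106.4). These 6 had the largest rank differences of the entries taken, in each direction, among the stronger head-to-head peaks.

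ZIPIC peaks covered a minority of the genome's head-to-head promoters, most often those with starts 200 to 400 bp apart. The annotation held 2667 such protein-coding gene pairs, and 799, or 30.0% (28.2 to 31.7%), had an optimal peak within 500 bp of both starts. A candidate entry of any strength was present at 1584 (59.4%). Of 13968 protein-coding genes 5052 (36.2%) belonged to a head-to-head pair, and 1517 of these to a pair with a peak. The median spacing at the peaks was 263 bp, with quartiles of 132 and 356 bp, against a median of 301 bp and quartiles of 163 and 502 bp over all 2667 pairs. The gene pairs with a peak had a median spacing of 259 bp and those without 344 bp. These differences in spacing follow in part from the rule, which leaves less room for a summit at wide pairs. Among pairs with starts at most 500 bp apart, 37.3% (744 of 1995) had a peak.

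Spacings of 200 to 400 bp were found at 50.6% (47.0 to 54.1%) of the peaks, against 35.5% of all pairs. The share of gene pairs with a peak was 35.0% (150 of 429) at 1 to 100 bp and 31.9% at 101 to 200 bp. It was 44.3% (40.0 to 48.6%) at 201 to 300 bp, 40.8% at 301 to 400 bp and 29.6% at 401 to 500 bp. Beyond that it was 19.7% at 501 to 600 bp, 3.32% at 601 to 800 bp and 1.55% at 801 to 1000 bp. The share was highest at 201 to 300 bp, the bin of 542 pairs. The low shares above 500 bp follow in part from the rule, because the stretch within 500 bp of both starts narrows as the spacing grows. Among pairs with any candidate entry in that stretch, 60.6% had an optimal peak at 201 to 300 bp and 50.2% at 1 to 100 bp, so the bin was also highest when measured this way.

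**Figure D3:**
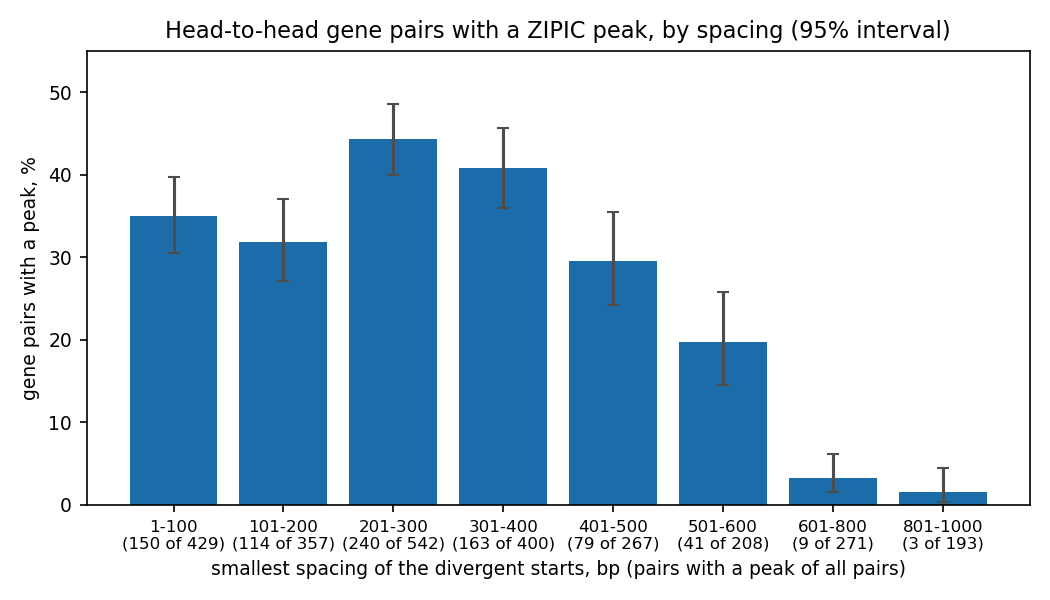
Percent of head-to-head gene pairs with a ZIPIC peak (bars from 0, with exact 95% intervals over pairs) by the spacing of the starts in bp, with the counts under each bin. The bars reach 44.3% at 201 to 300 bp and fall to 1.55% at 801 to 1000 bp, where the rule leaves only a short stretch for a summit.

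The narrowest pairs were dpa/didum, a subunit of the replicative helicase beside a myosin gene, and CG11710/mal, each with starts 2 bp apart. Next was CG3032/CG4593 at 6 bp. At dpa/didum the signal was 193.8 in replicate 2 and 233.1 in replicate 3. The widest were sub/CG10931 at 857 bp, CG4297/MED15 at 813 bp and B4/kuz at 811 bp, with kuz a metalloprotease of Notch signalling. B4/kuz was the strongest of these 3, with 539.7 in replicate 2 and 542.9 in replicate 3, against 130.7 and 79.5 at sub/CG10931. Other narrow pairs were strong, among them CG9588/Lkb1 (8 bp, pooled signal 1616) and glo/COX5A (20 bp, 2174). The median pooled signal of pairs with a peak was 277.4 at 1 to 100 bp, 291.6 at 201 to 300 bp and 284.9 over the 3 pairs at 801 to 1000 bp, so strength did not follow spacing in a simple order.

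Most peaks, 757, met the rule for 1 gene pair, 35 for 2, 1 for 3, 3 for 4, and 1 for 21. The last, at mod(mdg4) (chr3R:21365121-21365784, pooled signal 2796), reflects the annotation, in which the trans-spliced insulator gene mod(mdg4) is entered as many gene models. These models make up 37 of the 2667 pairs, 21 of them with this peak. At the 500 bp limit, sub/CG10931 and CRAT/CG42564 were just inside with 500 bp to the farther start (pooled signals 222.0 and 167.2). Just outside were CG11409/Naa30A at 501 bp (148.3) and Mpc1/CG42613 at 502 bp (151.8).

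Summits lay mainly between the starts. The summit was between them in 622 peaks, or 78.0% (75.0 to 80.9%), and within 50 bp of the midpoint in 350 (43.9%). The median distance from the midpoint was 61 bp. Whether summits lay closer to it than an even spread between the starts would place them was not tested. Where several pairs of starts met the rule, the closest starts were used. With the pair nearest to the summit the share between was 83.4%. The median distance to the nearer start was 79 bp and to the farther start 195 bp. The nearer start belonged to the minus-strand gene in 378 peaks and to the plus-strand gene in 413, with 6 at equal distance. The sides had similar counts. Of the summits 552 (69.3%) were intergenic, 161 (20.2%) in a 5′ UTR and 66 (8.28%) in an intron.

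The share of summits between the starts grew with spacing up to 400 bp. It was 34.7% (52 of 150) at 1 to 100 bp, 71.7% at 101 to 200 bp, 88.5% at 201 to 300 bp, 94.2% at 301 to 400 bp and 93.0% at 401 to 1000 bp. A wider interval also offers more room for a summit. The rule in turn leaves less room outside the starts as spacing grows, and none above 500 bp. The growth with spacing therefore follows in part from the rule. Among the 741 peaks with starts at most 500 bp apart the share between was 76.4%. The median distance from the midpoint was 61.8 bp at 1 to 100 bp, 42.0 bp at 201 to 300 bp and 126.5 bp above 400 bp, so it was not smallest in the narrowest pairs. The 175 summits outside the starts, 83 on the left and 92 on the right, lay a median of 62 bp beyond the nearer start. Their median pooled signal was 240.4, against 255.7 for summits between the starts. The 3 strongest outside the starts of the described pair were Sfmbt/CG43925, JMJD6/CG7071 and Prx6a/Sbat. The summit at Sfmbt lay between the starts of Sfmbt/CG5439, which also met the rule.

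**Figure D4:**
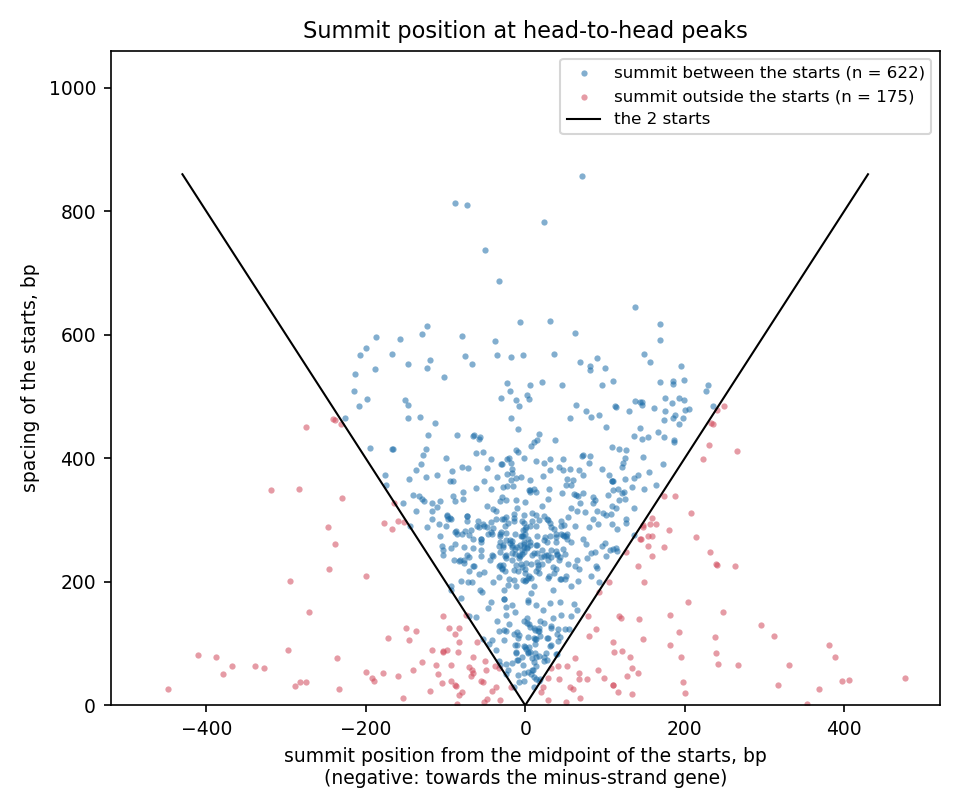
Spacing of the starts in bp (y) against the position of the summit from their midpoint in bp (x), with 1 point for each head-to-head peak and black lines for the starts. The 622 summits between the starts are densest at spacings of 200 to 300 bp, and the 175 outside lie mostly at narrow pairs.

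In each replicate's own 2971 strongest entries the same position was seen. Replicate 2 had 549 head-to-head entries, 77.6% with a summit between the starts and a median spacing of 265 bp. Replicate 3 had 875, with 76.1% and 254 bp. The number of head-to-head entries therefore differed more between the libraries than their geometry.

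Some promoters carried more than 1 listed peak, each with its own summit. Of the 735 gene pairs that describe the 797 peaks, 61 had 2 or more, and CG5757/CG5098 had 3. In 18 of the 61 the strongest and weakest peak were 2 summits of the same deposited interval. In 55 of the 61 the summits of the strongest and weakest peak were at most 250 bp apart. Over the 61 the median distance was 204 bp. The smallest distance between any 2 optimal summits was 199 bp, so no closer sites were listed as separate peaks. The stronger peak exceeded the weaker 2.02 times at the median. In 23 pairs the shorter core was only under the stronger summit, in 4 only under the weaker, in 3 under both and in 31 under neither.

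Examples show the range. At heix/CG17328 the stronger summit had 1142 in replicate 2 and 915.0 in replicate 3, and the weaker, 227 bp away, 1104 and 783.7. Both summits belong to 1 deposited interval there, as they do at the next pair. At Taf11/und, a general transcription factor subunit beside a peptidase gene, the stronger had 752.7 and 539.6 and the weaker 551.7 and 455.8. At ATPsynG/SCAR, an ATP synthase subunit beside an activator of Arp2/3, the stronger had 898.7 and 563.4 and the weaker 94.7 and 94.5. All 3 had the shorter core under the stronger summit and not under the weaker.

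The core string was common at the strong head-to-head peaks and rare at the weak ones. Strings were searched on both strands in the 101 bp centred on each summit. The core had been chosen with results of these peaks in view, so its shares are a description and not an independent test. CAGGGCTG was present in 84 head-to-head peaks, or 10.5% (8.49 to 12.9%), against 9.15% (7.56 to 11.0%) of other promoter peaks and a background of 7.54% of all optimal peaks. AGGGNTG, which the full core contains, was present in 187, or 23.5% (20.6 to 26.6%), against 21.1% (18.8 to 23.6%) and a background of 17.2%. The intervals for head-to-head and other promoter peaks overlap for both strings, so no difference beyond counting error was seen.

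Weaker candidate entries at head-to-head promoters, 962 in all, held the full core in 0.52% and the shorter core in 3.64%. The same search at the midpoint of the starts found the full core in 4.13% of the 799 pairs with a peak and 0.214% of the 1868 pairs without. From the weakest to the strongest of the 4 strength classes, the shorter core was present in 5.13%, 5.42%, 12.6% and 51.4% of head-to-head peaks, against 4.38%, 7.27%, 9.89% and 54.0% of other promoter peaks. The full core was present in 1.28%, 1.20%, 2.62% and 26.4%, against 0.398%, 1.38%, 1.77% and 28.0%. Both strings were thus concentrated in the strongest class of either kind of promoter. Because of how the core was chosen, this concentration and the contrast with candidates and pairs without a peak are not independent support for it.

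**Figure D5:**
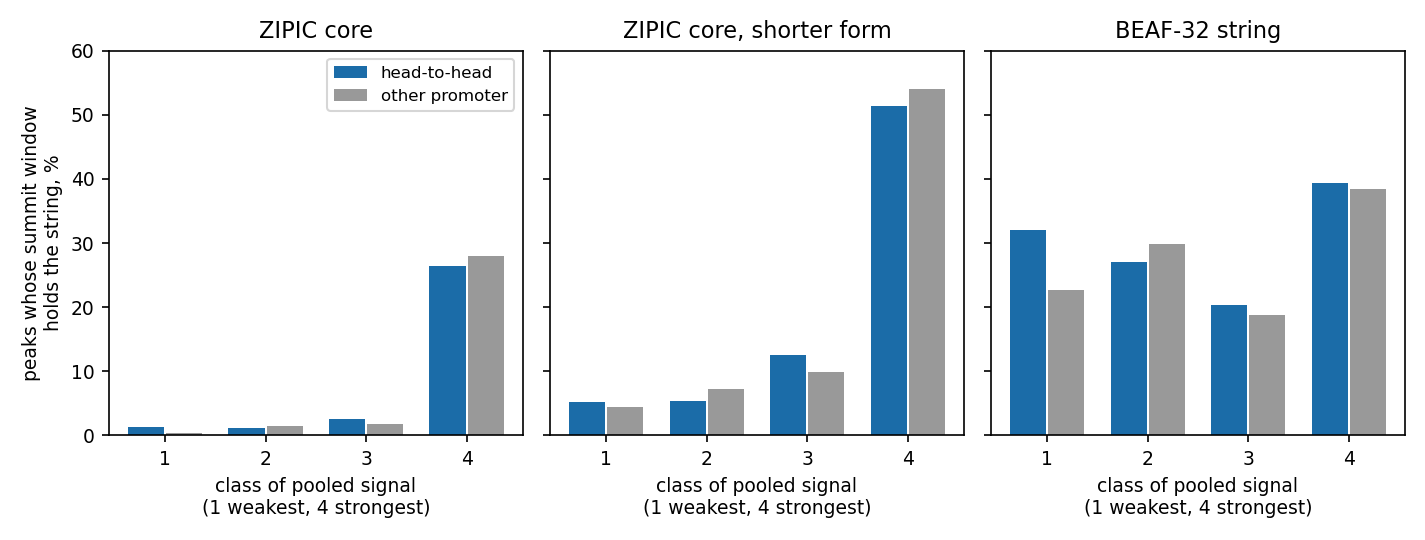
Percent of peaks whose 101 bp summit window holds the full ZIPIC core, its shorter form or the BEAF-32 string (panels), by class of pooled signal from 1 (weakest) to 4 (strongest), for head-to-head (blue) and other promoter peaks (grey). In class 4 the shorter core reaches 51.4% of head-to-head and 54.0% of other promoter peaks, whereas the BEAF-32 string is present in 20.4% to 39.4% of head-to-head peaks in every class.

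Head-to-head peaks with the shorter core were stronger in both libraries. The 187 with it had median signals of 710.3 in replicate 2 (165 listed) and 563.4 in replicate 3 (all 187 listed). The 610 without it had 139.2 in replicate 2 (384 listed) and 109.3 in replicate 3 (605 listed). Found in both requires a high rank in each replicate, so that share is not separate from strength. Peaks with the shorter core were found in both replicates in 85.0% (79.1 to 89.8%), against 48.7% (44.7 to 52.7%) of those without. They made up 65 of the 100 strongest head-to-head peaks. The spacing was alike, with medians of 251 bp with the core and 266.5 bp without it, and the summit was between the starts in 75.9% and 78.7%.

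The core lay close to a start and mostly in 1 orientation. In the 84 head-to-head peaks with CAGGGCTG the string's centre was a median of 15.5 bp from the summit and 30.0 bp from the nearer start, with quartiles of 17.2 and 49.0 bp for the start. In other promoter peaks it was 14.5 bp from the summit and 41.5 bp from the nearer start. In 61 of the 84, or 72.6% (61.8 to 81.8%), CAGGGCTG read on the strand opposite to the nearer gene. Other promoter peaks had 75.7% (66.5 to 83.5%), an interval that overlaps it. For the shorter form the shares were 76.5% and 74.5%. Among all genomic copies of CAGGGCTG within 100 bp of a protein-coding start, 203 lay in an optimal peak and 77.3% (71.0 to 82.9%) of these read on the opposite strand. Of the 36 with no candidate entry 66.7% (49.0 to 81.4%) did, with overlapping intervals.

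Strings of other promoter and insulator factors were also counted. CGATA was in 246 head-to-head peaks (30.9%, 27.7 to 34.2%), against 28.1% of other promoter peaks and a background of 23.0%. It was in 30.1% of the weaker head-to-head candidates. From the weakest to the strongest class it was in 32.1%, 27.1%, 20.4% and 39.4% of head-to-head peaks. Its share was thus highest in the strongest class but did not rise through the weaker ones. At the midpoints it was in 23.2% of pairs with a peak and 23.8% of those without. CGATA was in 51.3% of head-to-head peaks with the shorter core and 24.6% of those without. Of the 187 with the shorter core, 146 were in the strongest class. TATCGATA was in 46 (5.77%), against 5.99% and a background of 4.11%. GGTCACACT, the string of the promoter factor M1BP, was in 18 (2.26%), against 1.88% and a background of 1.41%.

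TATAAA, the TATA box, was in 151 head-to-head peaks (18.9%, 16.3 to 21.8%), against 14.0% (12.1 to 16.2%) of other promoter peaks and a background of 17.5%. The median GC content of the windows was 35.6% at head-to-head and 38.6% at other promoter peaks, and its part in the TATAAA difference was not tested. GAGAG, the string of GAGA factor, was in 57 (7.15%), against 9.58% and a background of 9.16%. CACGTG, the E-box, was in 8 (1.0%), against 1.2% and a background of 0.841%. A match is a description of letters in the window, and no match says nothing about the factor.

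Vacuolar ATPase and cytoplasmic ribosomal protein genes had the highest shares of bound genes among the 11 gene groups counted. A gene in a head-to-head pair counted as bound when its pair had a peak, and 30.0% (28.8 to 31.3%) of all 5052 such genes were bound. Cytoplasmic ribosomal protein genes had 32 of 56 bound, or 57.1% (43.2 to 70.3%), an interval above the share of all genes. Vacuolar ATPase genes, for the proton pump of acidic organelles, had 9 of 14, or 64.3% (35.1 to 87.2%). Mitochondrial ribosomal protein genes had 25 of 58, or 43.1% (30.2 to 56.8%). The intervals of these 3 groups begin above 30.0%, and no test was made over the 11 groups.

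The intervals of the next 7 groups hold the share of all genes. Nucleoporin genes had 8 of 18 bound, respiratory chain and ATP synthase genes 18 of 44, and RNA polymerase, TFII and Mediator genes 21 of 55. Aminoacyl-tRNA synthetase genes had 7 of 22, proteasome genes 7 of 26, and translation factor genes 6 of 25. Architectural and promoter factor genes had 6 of 12. Odorant and gustatory receptor genes, which are expressed in sensory neurons, had 0 of 16, with an interval that ends at 20.6%, below the share of all genes.

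Ribosomal protein genes had peaks of widely different strength, from 139.3 to 2205 in pooled signal. CG6693/RpL3 had 1299 in replicate 2 and 915.7 in replicate 3, and RpL34a/Trmt61 had 1050 and 937.1. The strongest mitochondrial one was mRpL47/CG8176, with 1412 in replicate 2 and 1131 in replicate 3. Replicate 2 was the higher in each of these 3.

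The 7 bound proteasome genes fell at either end of the range of strength, 4 of them with pooled signals of 1504 to 2643, and 5 had the shorter core under the peak. The other 3, Rpn5 (196.3), Rpt4 (179.6) and Rpn2 (143.9), which belong to the regulatory particle, were below the head-to-head median of 255.2. At dgt3/Prosalpha3, a core particle subunit beside an augmin gene, the signal was 1634 in replicate 2 and 1017 in replicate 3. At kat80/Prosalpha4 it was 1171 and 945.4, and at Prosbeta1/Rrp42, beside an RNA exosome gene, 1129 and 926.1. The aminoacyl-tRNA synthetase genes were at the low end, from 140.0 to 292.4 in pooled signal and without the shorter core. Among them SerRS/CG17260 had no entry in replicate 2 and 124.5 in replicate 3. The bound vacuolar ATPase genes had a median of only 163.7. They included noi/Vha26 (1193 and 906.9 in replicates 2 and 3) and Vha68-1/mTor, beside the growth-control kinase (781.1 and 508.5), and 4 of the 9 were found in both replicates.

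The highest peaks of 3 further lists are given as single peaks. PDCD-5/MED10, with a Mediator subunit, had 1388 in replicate 2 and 1093 in replicate 3. At pico/Nup205, with a scaffold nucleoporin, the values were 1165 and 1131. At glo/COX5A, an RNA-binding regulator beside a cytochrome c oxidase subunit, they were 1227 and 956.1. The lists as a whole were weaker, with median pooled signals of 319.0 for RNA polymerase, TFII and Mediator genes and 597 for nucleoporin genes. Respiratory chain and ATP synthase genes had a median of 178.6, below the head-to-head median of 255.2, and 5 of the 18 were found in both replicates.

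Some genes for partners of ZIPIC and related factors were among the bound pairs, 6 of the 12 in head-to-head pairs (21.1 to 78.9%). That interval holds the 30.0% of all genes in such pairs. Cp190/CG4338, with Cp190 encoding the partner protein CP190 (chr3R:15275220-15275437), had 338.4 in replicate 2 and 198.8 in replicate 3, with starts 281 bp apart. Chro/Ssl1, with the interband protein Chromator and a TFIIH subunit, had 545.8 and 441.9. Dref/RpL13 had 171.1 and 199.1, and CG12974/pzg, with the chromatin protein Putzig, 155.7 and 136.0. The other 2 bound members of the list were M1BP/CG8202, with 126.4 and 104.5, and MED7/Cap-H2, with no entry in replicate 2 and 70.9 in replicate 3. Of the 6 windows only that of M1BP/CG8202 held the shorter core. In 7 bound pairs both genes belonged to the listed groups, among them mRpL39/Prosbeta2, mRpL55/ATPsynD and RpS27/Nup37.

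The chromosome arms differed modestly. Peaks were found at 35.1% (31.6 to 38.9%) of the head-to-head pairs on 3R, 30.7% on 3L, 30.6% on 2L, 26.3% (22.1 to 30.9%) on X and 25.4% (21.8 to 29.3%) on 2R. The 3R pairs include the 37 of mod(mdg4), 21 of them with the same peak, so the share and interval for 3R count that locus many times. Chromosome 4 had 0 at its 11 pairs, with an interval that ends at 28.5%. The X chromosome held 13.3% of the head-to-head peaks and 17.8% of all optimal peaks. Replicate 2 listed 58.5% of the X-linked head-to-head peaks and 65.5% to 73.2% of those on 2L, 2R, 3L and 3R. Median pooled signal was also lowest on X, at 209.2 against 229.8 to 297.7 on those 4 arms. The other arms did not keep this order. The median was lower on 3L than on 2R (229.8 and 255.6), but the share listed was higher (70.6% and 65.5%). The part of strength in the share was not tested.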

How the data were processed

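ChIP-seq peak lists of 2 biological replicates were used. Per the labels, chromatin was sheared by sonication and precipitated with an antibody against GFP according to the description, whereas the antibody field names CG7928; which aligner and peak caller were used is not given in the sources used here. For dm6, the deposited lists hold 30000 candidate entries for each replicate and for the pooled replicates, and 2971 optimal peaks, which are the 2971 strongest pooled entries. The authors' signal value ranked and described entries. The deposited −log10 q-value was at its maximum for 74.4% of optimal peaks and was not used. The lists hold no read counts, so depth is unknown, and nothing was converted between builds; the dm3 lists were not used.

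Summits were placed on Ensembl release 115 starts (BDGP 6.54) and Release 6 sequence from RefSeq with Python 3.11.15, pandas 2.3.3, numpy 2.4.6, scipy 1.17.1 and matplotlib 3.10.9. Where several pairs met the rule the pair with the closest starts was described. The assignment was checked on simulated data. The peaks, gene lists, strings and alternatives were chosen with earlier results of these data known. Gene lists were symbol patterns, and 19 of 20 architectural symbols matched. Named peaks were the 20 strongest, the 3 narrowest and widest, the 3 strongest outside the starts or without the shorter core, the 5 strongest without an entry in a replicate, the 3 with the largest rank difference each way, those nearest the 500 bp limit, and the 3 strongest of each gene list. Other named peaks (examples of promoters with more than 1 peak, pairs with both genes in lists, the weaker members of gene lists, other narrow pairs, the mod(mdg4) peak and the sequences) were chosen after their values were seen. With 1 group no test between conditions was possible. A few items that these rules would name are not reported here.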

Additional observations from a re-analysis of the deposited data

How the results depend on the processing

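No paired analysis was possible because both replicates belong to 1 group. Of 67 recomputed values 40 stayed close to the reported one: within 1.5 times for the number of peaks, within its 95% interval for the share found in both, and within the spread between replicates for the rest. That spread was wide for the signal ratio (0.494) and for the share of gene pairs with a peak (8.75 percentage points). Staying within it is a loose standard for these results. The number of head-to-head peaks was 527 with a summit window of 250 bp, 475 in optimal peaks at or above the median signal and 456 among those found in both replicates, and 549 to 875 in single replicates' lists. The share found in both was 80.8% at or above the median signal, 68.5% when any candidate entry counted and 51.4% when each interval had to overlap by 0.5 of its length. The signal ratio to other promoter peaks was 1.74 among peaks found in both and 1.065 to 1.763 when a replicate was left out. The median spacing was 253 bp with starts at most 500 bp apart, 225 and 278 bp with windows of 250 and 1000 bp, 275 bp for the pair nearest to the summit, and 254 to 265 bp when a replicate was left out. Under those settings in the same order the share of summits between the starts was 76.4%, 81.6%, 74.0%, 83.4% and 76.1 to 77.6%, and it was 79.9% from the most upstream starts only. The share with the core was 16.8% at or above the median signal, 17.1% among peaks found in both, 6.78% and 13.0% in windows of 25 and 100 bp on each side, and 9.83 to 13.1% when a replicate was left out. The share of gene pairs with a peak was 18.4% at or above the median signal, 17.2% among peaks found in both, and 20.1 to 32.5% when a replicate was left out. Allowing 2000 bp between starts changed no set of peaks, because both starts lie within 500 bp of the summit. With 2 replicates of 1 group, no untagged control and unknown depth, weak peaks are the least certain.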
